A study of Mus musculus with 10 samples.

Results

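The S100 calcium-binding proteins were followed in hair follicle stem cells (HFSCs), the resting stem cells that sit in the bulge of the follicle, with and without a label of Sox9 loss. The 10 genes were chosen by name from the deposited FPKM table (S100a1, S100a3, S100a4, S100a6, S100a8, S100a9, S100a10, S100a11, S100a13 and S100a16), out of 37298 listed gene rows. All 10 passed the filter on low values given below. They were chosen with the FPKM values, the genotype comparison and the peak lists of these data already known. All values of the 10 genes below are therefore a description. The fit over the whole table also gives calls and errors for them, from which nothing is read. FPKM scales the fragments of a gene by its transcript length and by the mapped fragments of the library, so levels of different genes can be compared per length.

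RNA was sequenced from 4 libraries of HFSCs sorted as integrin α6hi, CD34+, ScaI- and YFP+ from telogen back skin of mice of a mixed C57BL6 background, 2 labelled Sox9 conditional knockout (cKO) and 2 control. Both genotypes had received RU486, which activates CrePGR, on days 48 to 61 (males, replicate 1, sorted at day 75) or days 53 to 66 (females, replicate 2, sorted at day 80). The sources used here do not name the promoter that drives the Cre. The controls are called Het in their titles and wild type in their genotype field, and the labels do not say how many mice went into a library. SOX9 binding was mapped with ChIP-seq, the sequencing of DNA that an antibody against SOX9 pulls down, in untreated CD-1 females of days 52 to 60. It gave 2 peak lists from HFSCs (integrin α6hi, CD34+, ScaI-; 8181 and 2989 peaks) and 1 from interfollicular epidermal (IFE) cells (integrin α6hi, CD34-, ScaI-; 5209 peaks).

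S100 proteins are small proteins, most of them dimers, that bind calcium through a pair of helix-loop-helix motifs called EF-hands and then grip partner proteins such as annexins and myosins. Some, such as S100a8 and S100a9, are also released and act on receptors of innate immunity. Most of their genes lie in or beside the epidermal differentiation complex, a gene cluster that also holds the genes of the cornified envelope of skin.

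HFSC and basal markers were present in every library, and the genotype label was not borne out by the level of Sox9. All 10 HFSC and basal markers on the list had a mean of at least 1 FPKM. This level does not set bulge cells apart, since all 7 suprabasal markers given below reached it too. Cd34 and Itga6 (integrin α6) were moreover used to sort the cells. The summed level of the 10 ranged from 18388 to 22891 FPKM, of which the keratins Krt5, Krt14 and Krt15 gave 92.7% to 96.7%. The sum of the other 7 was lower with the cKO label in both pairs, at 964 against 1473 and 755 against 1049 FPKM. Lhx2, a transcription factor of bulge stem cells, stood at 114 FPKM with the cKO label and 359 in the control of the male pair, and at 87.1 and 195 in the female pair (limma, adjusted p = 0.0273 with the replicate number as a block and 1.00 without it). Cd34 and Nfatc1, also bulge markers, stood lower with the cKO label in both pairs without passing (log2 differences of -0.53 and -0.58, limma, adjusted p = 0.247 for each with the block). Itga6 was instead higher with the cKO label in both pairs, at 151 against 145 and 66.4 against 58.2 FPKM. Tcf7l1 was opposite in the pairs, at 12.3 against 19.5 FPKM in males and 5.67 against 5.41 in females. Between the replicates, Lgr5 stood at 110 and 137 FPKM in males and at 38.04 and 43.8 in females. The part of these markers in the S100 values was not tested. In the male pair Sox9 had 71.3 FPKM with the cKO label and 82.7 in the control, and in the female pair 80.5 and 46.5. The directions are opposite in the 2 pairs, and the FPKM covers the whole gene rather than the deleted part. The libraries are therefore called "labelled cKO" throughout, and each direction below follows the label.

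All 10 genes lie on chromosome 3 of the mouse build mm9, in 2 groups. From S100a1 to S100a9, 8 of them occupy 185 kb (90314955 to 90499643), and S100a11 and S100a10 occupy 44.2 kb that begin 2.82 Mb further on (93324409 to 93368565). The loci are short, from 964 to 10147 bp, with a median of 3225 bp, against 25752 bp for all tested genes.

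Together the 10 genes made up between 0.697% and 1.01% of the summed FPKM of a library. S100a6, a protein that binds the ubiquitin ligase adaptor CacyBP, had the highest level, with a mean of 2916 FPKM over the 4 libraries and a range of 2133 to 4180. This put it at rank 15 among the 14455 tested genes, those with a mean of at least 1 FPKM. S100a4, a partner of non-muscle myosin, followed with a mean of 1348 FPKM (310 to 2862) and S100a10, the partner of annexin A2, with 1021 (585 to 1546). S100a16 had a mean of 380 FPKM (274 to 509) and S100a11, a partner of annexin A1, one of 303 (230 to 372). Further down came S100a1, best known from muscle, with a mean of 65.6 FPKM (33.7 to 101), and S100a13, which takes part in the release of FGF1, with 24.4 (12.95 to 37.96). S100a3, a protein of the hair cuticle, had a mean of 7.94 FPKM (4.23 to 12.3), and the pair of inflammatory proteins came last, S100a9 with 3.39 (0.876 to 8.96) and S100a8 with 2.21 (0 to 5.73). The range of S100a4 overlapped those of S100a6 and S100a10, as did those of S100a16 and S100a11, of S100a1 and S100a13, and of S100a3, S100a9 and S100a8. Gaps without overlap separated S100a10 from S100a16, S100a11 from S100a1, and S100a13 from S100a3. S100a14, which is not among the 10 genes, stood at 226 to 445 FPKM, beside its neighbour S100a16.

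**Figure D1:**
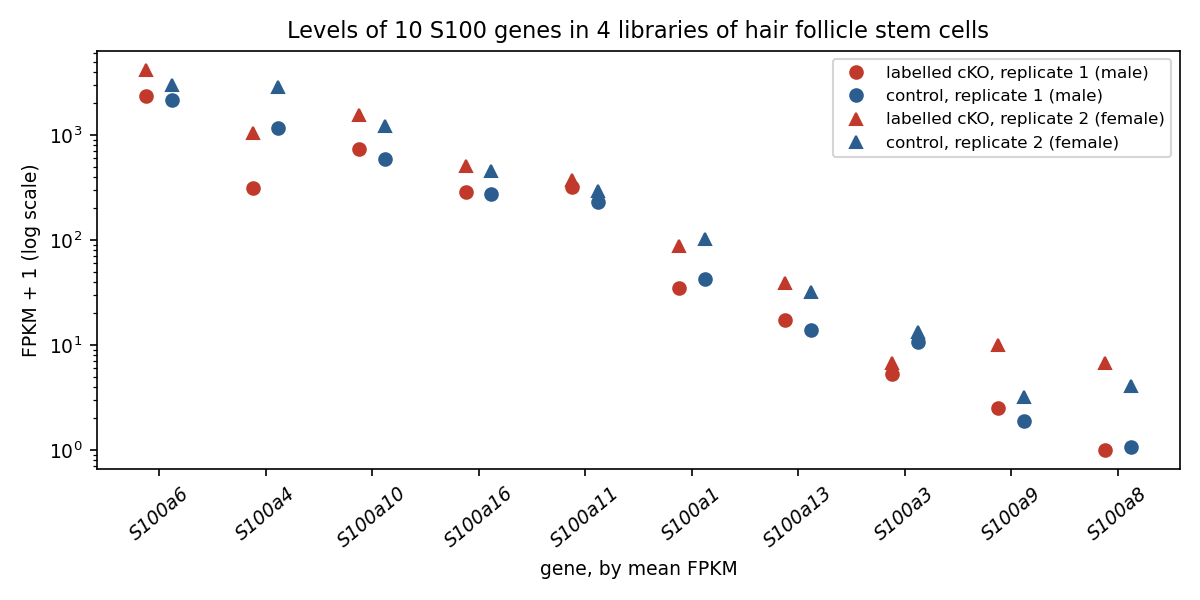
FPKM + 1 on a log axis for the 10 S100 genes, ordered by mean FPKM, with 1 point per library (red, labelled cKO; blue, control; circles, replicate 1; triangles, replicate 2). S100a6 lies highest at 2133 to 4180 FPKM, and S100a4 spreads from 310 to 2862 with both red points below both blue ones.

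S100a4 showed the widest mean difference over the 2 pairs between the genotype labels; in the female pair S100a9, at a far lower level, lay further apart (1.65 on the log2 scale, higher with the cKO label). In males it had 310 FPKM in the library labelled cKO and 1168 in the control, and in females 1051 and 2862. Both libraries labelled cKO lay below both controls, by a ratio of control to cKO of 3.77 in the male pair and 2.72 in the female pair. On the log2(FPKM + 1) scale the pair differences were -1.91 and -1.44, with a mean of -1.68 and a moderated standard error of 0.93 without and 0.16 with the replicate number as a block.

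S100a3, the next locus below S100a4, went the same way at a far lower level. In males it had 4.23 FPKM in the library labelled cKO and 9.60 in the control, and in females 5.66 and 12.3. Here too both libraries labelled cKO lay below both controls. The ratios of control to cKO were 2.27 and 2.17, and the mean log2 difference was -1.01 (moderated standard error 0.34 without and 0.17 with the block). The 2 loci are separate in the table, S100a3 at 90404136 to 90406624 (ENSMUSG00000001021) and S100a4 at 90407691 to 90409967 (ENSMUSG00000001020), and S100a4 stood 73.3 to 233 times above S100a3 in a library. Whether fragments of S100a4 were counted for S100a3 was not tested.

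Over the whole table, both libraries labelled cKO lay below both controls in 2 of the 10 genes, S100a3 and S100a4, and in 8.42% of all tested genes. On log2(FPKM + 1), S100a4 alone was at least 2-fold lower in both pairs, against 0.277% of tested genes. None was at least 2-fold higher on that scale (0.194%). S100a3, with plain FPKM ratios of 2.27 and 2.17, missed the 2-fold bound on that scale narrowly in the female pair. It passed the bound with a pseudocount of 0.1 in place of 1. Limma called none of the 10 genes with genotype as the only term, where it called 0% of all genes (93 of 14455 had p under 0.05 before adjustment). With the replicate number as a block it called S100a4 lower, together with 0.180% of all tested genes, and no member higher, where the share of all genes was 0.104%. That call was lost in 2 of 7 blocked fits, with no filter and with no mean trend (limma, adjusted p = 0.742 and 0.200). With 1 library left out and no block, the S100a4 difference was -0.80 without the replicate 1 library labelled cKO, -2.56 without that of replicate 2, and -2.32 and -1.03 without the control of replicate 1 and of replicate 2. Since the genes were chosen with this comparison known, nothing is read from these counts.

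SOX9 peaks of HFSCs lay within and just below these 2 loci. HFSC list 1 has a peak inside S100a3, at chr3:90404206-90404819, and one inside S100a4, at chr3:90408145-90408799. Both HFSC lists have a peak below S100a3, at chr3:90401337-90402445 in list 1 and chr3:90401186-90402100 in list 2, which share 764 bp. This shared site ends 1.69 kb (list 1) or 2.04 kb (list 2) before the S100a3 locus and 5.25 kb or 5.59 kb before S100a4. The IFE list has no peak at any of these 3 sites. Its nearest, chr3:90394025-90394471, ends 9.67 kb below S100a3, where HFSC list 1 has an overlapping peak. The lists hold positions only, so a missing peak shows that none was called, and not that SOX9 was absent.

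**Figure D2:**
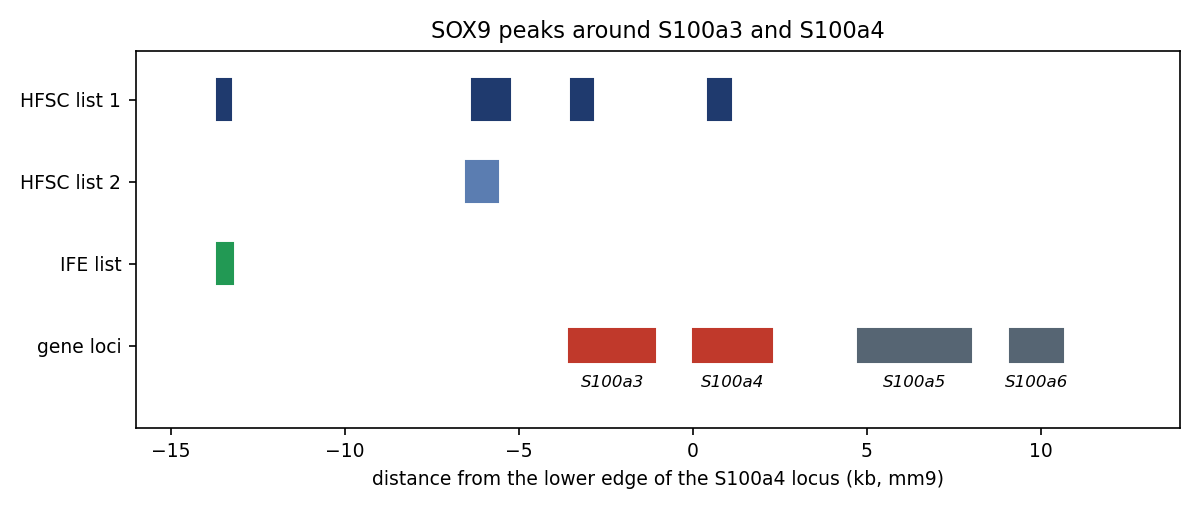
Gene loci (bottom row; S100a3 and S100a4 in red) and SOX9 peaks of the IFE list and both HFSC lists, drawn to scale against the distance in kb from the lower edge of the S100a4 locus. HFSC list 1 has peaks inside S100a3 and S100a4, both HFSC lists share a site just below S100a3, and the IFE peak lies 9.67 kb below S100a3.

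Peaks overlapping a locus are common in these lists. Such a peak of HFSC list 1 was present for 26.4% of tested genes and for 2 of the 10 S100 genes, S100a3 and S100a4. A peak shared by both HFSC lists but absent from the IFE list lay within 10 kb of S100a3 and S100a4, and within 10 kb of 5.33% of tested genes. Within 50 kb, such a peak was present for 3 of the 10 genes, with S100a6 added, and for 9.40% of tested genes. These S100 genes share that 1 site and are not independent observations.

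The RefSeq sequences just before the starts of S100a3 and S100a4 are shown, because these genes stood lower together, with that of S100a6, the next abundant gene of the cluster, which did not. Each run gives the 250 bases before the start site, 5′ to 3′ on the plus strand of GRCm38, a later build than that of the peaks; positions of the builds were not converted. RefSeq gives 4 starts for S100a3, and the one shown lies 3556 bp before the S100a4 start, as the deposited S100a3 locus (3555 bp) does. The others lie 15207 to 19111 bp before the S100a4 start. In mm9 the shared HFSC site ends 5.25 kb or 5.59 kb before S100a4 and the nearest IFE peak 13.2 kb. By these distances, both lie before the deposited S100a3 locus but after those other starts. Capitals mark TATAAA, the TATA box.
S100a3, chr3:90599964-90600213: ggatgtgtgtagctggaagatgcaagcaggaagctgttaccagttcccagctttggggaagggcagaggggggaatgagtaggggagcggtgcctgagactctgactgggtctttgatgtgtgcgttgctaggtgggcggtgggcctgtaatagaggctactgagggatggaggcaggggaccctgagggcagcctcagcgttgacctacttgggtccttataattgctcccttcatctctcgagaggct
S100a4, chr3:90603520-90603769: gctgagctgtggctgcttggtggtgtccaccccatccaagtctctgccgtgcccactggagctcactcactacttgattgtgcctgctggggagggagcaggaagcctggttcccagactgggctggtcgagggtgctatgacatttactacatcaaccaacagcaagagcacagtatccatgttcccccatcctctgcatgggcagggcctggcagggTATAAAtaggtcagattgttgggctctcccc
S100a6, chr3:90612644-90612893: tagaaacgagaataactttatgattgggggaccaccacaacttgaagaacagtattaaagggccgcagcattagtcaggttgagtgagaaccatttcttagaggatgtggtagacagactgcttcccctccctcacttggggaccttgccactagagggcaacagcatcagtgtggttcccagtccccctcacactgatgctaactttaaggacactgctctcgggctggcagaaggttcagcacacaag

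Promoter entries were found for 9 of the 10 genes, all but S100a10. Neither ACAATG nor ACAAAG, which are forms of the SOX core motif, occurred on either strand of the 250 bases of any of the 9, where 25.2% of all 32851 RefSeq windows of this length hold at least 1 of them. This says only that these letters are not in these windows. Where RefSeq gives several starts, the one that matches the deposited locus was used. Of the others, 1 of S100a3 has ACAAAG and that of S100a16 has ACAATG and TGANTCA in the 250 bases before it. The TATA box of S100a4 lies at bases -31 to -26 before the start, and TATAAA on either strand occurs in 12.4% of all windows. In mm9 the peak inside S100a4 begins 454 bp after the lower edge of the locus, and the one inside S100a3 begins 70 bp after its lower edge, so that neither covers the stretch before the deposited locus.

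S100a6 lies 6.85 kb beyond S100a4 and was not lower in either pair. In males it had 2375 FPKM with the cKO label and 2133 in the control, and in females 4180 and 2976. It was thus higher within each pair, by 0.15 and 0.49 on the log2 scale, while the genotypes overlapped across replicates. Between them, S100a5 was listed at 0.240 FPKM or less in every library. The ratio of S100a4 to S100a6, which does not depend on the total of a library, was 0.131 with the cKO label and 0.547 in the control of the male pair, and 0.252 and 0.962 in the female pair. The ratio in each library labelled cKO was below that of both controls, including across replicates.

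**Figure D3:**
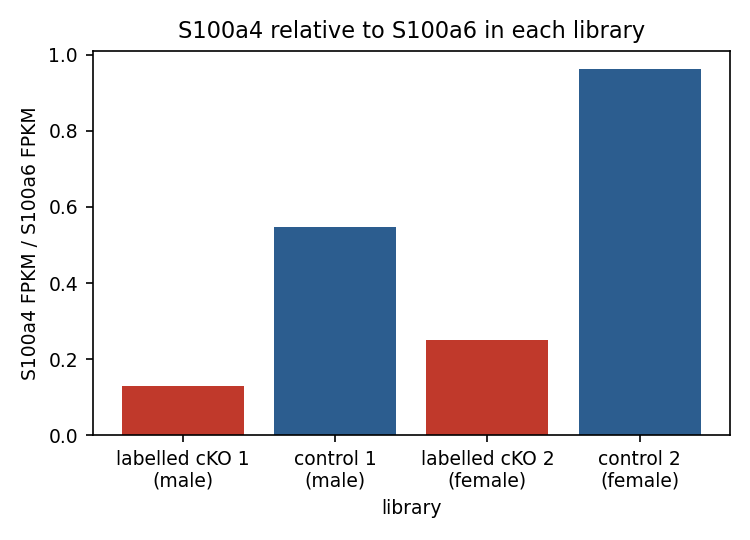
FPKM of S100a4 divided by FPKM of S100a6 in each of the 4 libraries (red, labelled cKO; blue, control), as bars from 0. The libraries labelled cKO stand at 0.131 and 0.252, below the controls at 0.547 and 0.962.

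The S100a6 locus has no SOX9 peak inside it in any list. The nearest peak of HFSC list 1, the one inside S100a4, lies 8.02 kb away, that of HFSC list 2 is the shared site at 14.7 kb, and that of the IFE list lies 22.3 kb away. All of these are peaks that S100a3 and S100a4 also have in their windows.

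The annexin partners S100a10 and S100a11 were both somewhat higher in the libraries labelled cKO within each pair. S100a10, which forms a tetramer with annexin A2 at the cell membrane and does not itself respond to calcium, stood at 727 against 585 FPKM in replicate 1 and at 1546 against 1228 in replicate 2. S100a11 stood at 319 against 230 FPKM in replicate 1 and at 372 against 290 in replicate 2. Its 2 libraries labelled cKO lay above both controls, which held for 1 of the 10 genes and for 5.47% of all tested genes. The mean log2 differences were 0.32 for S100a10 and 0.41 for S100a11, with moderated standard errors of 0.79 and 0.47 without and 0.13 and 0.12 with the block. With quantile normalization the mean for S100a10 turned to -0.00417.

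Around these 2 genes, the HFSC lists differed. HFSC list 1 has peaks 4.03, 16.1 and 18.2 kb beyond the upper edge of S100a10 and one 12.9 kb below S100a11, whereas the nearest peak of HFSC list 2 lies 1046 kb from S100a10. The IFE list has a peak 16.3 kb beyond S100a10 and one 12.9 kb below S100a11, and both overlap peaks of HFSC list 1. No site here was thus called in both HFSC lists.

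The 250 bases before the S100a11 start are shown because they hold the AP-1 motif TGANTCA 2 times, the only matches in the windows used for the 9 genes. Capitals mark the matches, at bases -136 to -130 and -38 to -32. The motif reads the same on both strands, and 6.75% of all RefSeq windows of this length hold it.
S100a11, chr3:93520246-93520495: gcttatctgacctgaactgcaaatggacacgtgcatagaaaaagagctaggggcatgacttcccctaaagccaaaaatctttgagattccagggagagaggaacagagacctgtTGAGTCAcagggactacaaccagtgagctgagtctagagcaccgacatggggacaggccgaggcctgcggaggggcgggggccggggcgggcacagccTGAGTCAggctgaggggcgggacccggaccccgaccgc

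At the lower end of the cluster, S100a1 and S100a13 are transcribed away from each other. RefSeq places the start of S100a1 on the minus strand and that of S100a13 on the plus strand with 104 bases between them, shown here because the 2 genes differed in direction. None of the motifs above occurs in it.
S100a1-S100a13, chr3:90514331-90514434: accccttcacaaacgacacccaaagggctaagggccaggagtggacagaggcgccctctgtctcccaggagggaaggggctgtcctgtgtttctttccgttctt

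In the library labelled cKO S100a1 had 33.7 FPKM in males and 86.7 in females, against 41.0 and 101 in the controls. S100a13 had 16.1 and 37.96 FPKM with the cKO label, against 12.95 and 30.7 in the controls. S100a1 was thus lower by 0.28 and 0.22 in the pairs on the log2 scale, and S100a13 higher by 0.29 and 0.30. Each of these differences is smaller than that between replicates of one genotype, which exceeded 1.18 for both genes. The table gives these loci edge to edge (S100a1 ends at 90318314, S100a13 begins at 90318356), and the sources used here do not say whether the counting used strand.

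S100a16, a broadly expressed member, stood at 283 against 274 FPKM in replicate 1 and at 509 against 454 in replicate 2. Its mean log2 difference of 0.10 turned to -0.0995 with quantile normalization. S100a14 stood at 251 against 226 and at 444 against 445 FPKM. None of S100a1, S100a13 and S100a16 has a peak within 10 kb in any list. S100a16 has peaks 47.0 kb away in HFSC list 1 and in the IFE list, and S100a1 and S100a13 have none within 50 kb.

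S100a8 and S100a9 form the heterodimer calprotectin, which neutrophils hold in large amounts and which keratinocytes make under stress or injury. S100a8 was listed at 0 and 0.0597 FPKM in the male library labelled cKO and its control, and stood at 5.73 and 3.05 in the female ones. S100a9 stood at 1.53 against 0.876 FPKM in replicate 1 and at 8.96 against 2.18 in replicate 2. Both genes were highest in the replicate 2 library labelled cKO. S100a9 was higher in the library labelled cKO within each pair, by 0.43 and 1.65 on the log2 scale. S100a8 passed the filter of 1 FPKM only through the replicate 2 libraries. Both lie 64.2 kb or more from any peak of the 3 lists.

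Some marker lists of other cells differed between the replicates and some between the genotype labels. On the list of 15 neutrophil and myeloid markers, Ly6g, Ngp and Retnlg were listed at 0 in all libraries and Csf3r at 0.00283 FPKM or less, and the summed level lay between 11.01 and 14.03 FPKM in males and between 37.4 and 37.9 in females. Most of that sum was Itgam, at 7.13 to 9.57 and 20.3 to 27.6 FPKM. Cd52 stood at 1.70 and 1.61 FPKM in the male library labelled cKO and its control, and at 6.23 and 8.05 in the female ones. Tyrobp and Fcer1g were highest in the replicate 2 control, at 3.83 and 4.24 FPKM. Itgam, Lyz2, Ltf and Cxcr2 were highest in the replicate 2 library labelled cKO, at 27.6, 0.653, 0.419 and 0.275 FPKM, as S100a8 and S100a9 were. Mpo, Elane and Camp were instead listed at 0 in both replicate 2 libraries. Mpo and Elane were highest in the replicate 1 library labelled cKO, at 0.721 and 0.0781 FPKM, and Camp in its control, at 0.142. All 7 suprabasal markers had a mean of at least 1 FPKM. Their summed levels were 4033 and 4302 FPKM in replicate 1 and 8108 and 12719 in replicate 2, the lower of each with the cKO label. Krt10, a suprabasal keratin, was opposite in the pairs, at 1768 against 1729 FPKM in males and 2566 against 3973 in females. Lor, the cornified envelope protein loricrin, moved most between the replicates, from 247 and 341 FPKM to 1682 and 2775, and Krt1, a suprabasal keratin, went the other way, from 473 and 551 to 387 and 482. Flg, which encodes profilaggrin, has 6 rows in the table, each lower with the cKO label in both pairs, by log2 differences of -0.14 to -0.42 in males and -0.93 to -1.24 in females. The part of these cells in the S100 levels was not tested. In sorted bulk cells, fewer cells of a type and less RNA per cell cannot be told apart. The 8 dermal fibroblast markers summed to 28.0 and 32.7 FPKM with the cKO label and to 21.3 and 22.4 in the controls. Of these sums Col1a2 gave 7.40 to 21.9. Col1a1 was opposite in the pairs, at 0.336 against 1.80 FPKM in males and 6.99 against 0.802 in females. Thy1 was also opposite, at 5.44 against 4.40 and 9.77 against 13.7. S100a4 is also known as fibroblast-specific protein, and the part of fibroblasts in its level was not tested. The sum of sebocyte markers was also higher with the cKO label in both pairs (284 against 183 and 291 against 244 FPKM). Mgst1 was higher in both, whereas Scd1 was lower in the female pair (40.3 against 44.0 FPKM). The sum of hair shaft markers was lower with the cKO label (14.1 against 18.9 and 12.3 against 17.1). Msx2 was lower in both pairs, whereas Hoxc13 was higher in the male pair (10.3 against 9.58 FPKM). The shaft keratins Krt31 and Krt35 stood at 0.356 FPKM or less. Melanocyte and Schwann cell markers were lower in females (18.1 and 19.2 FPKM) than in males (49.5 and 45.7). Most of each sum was Mitf, at 13.7 and 15.1 FPKM in females and 44.3 and 39.5 in males. Langerhans and T cell markers summed to 32.1 to 79.8 FPKM, of which Cd74 gave 27.8 to 71.0 and Cd207 gave 2.72 to 4.95. Those of endothelium summed to at most 0.249.

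Replicate 2 had the higher level of all 10 genes in both genotypes, and of 41.7% of all tested genes. S100a8 passed the filter on low values only through replicate 2 and so had to be higher there. Of the other 9, S100a1, S100a4, S100a10 and S100a13 were at least 2-fold higher in both genotypes, on log2(FPKM + 1), against 8.16% of all tested genes, and none was at least 2-fold lower (5.39%). The median difference of the 9 genes was 1.08 on the log2 scale, beside -0.00130 for all tested genes. Short loci shared part of this. Among the 4080 tested genes whose loci are no longer than 10147 bp, the longest of the 10, 65.1% were higher in replicate 2 in both genotypes, 18.2% at least 2-fold, and the median was 0.45. Sex, age, days of treatment and library preparation cannot be told apart in this difference. By genotype label, 6 of the 10 genes were higher in both pairs (28.4% of all tested genes; the means of S100a10 and S100a16 turn with quantile normalization), 3 were lower (29.6%) and S100a8 was opposite in the 2 pairs (41.5%). The median difference by label was 0.31 over the 10 genes and -0.00640 over all tested genes. Over the 4080 tested genes with loci no longer than 10147 bp it was 0.0784.

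**Figure D4:**
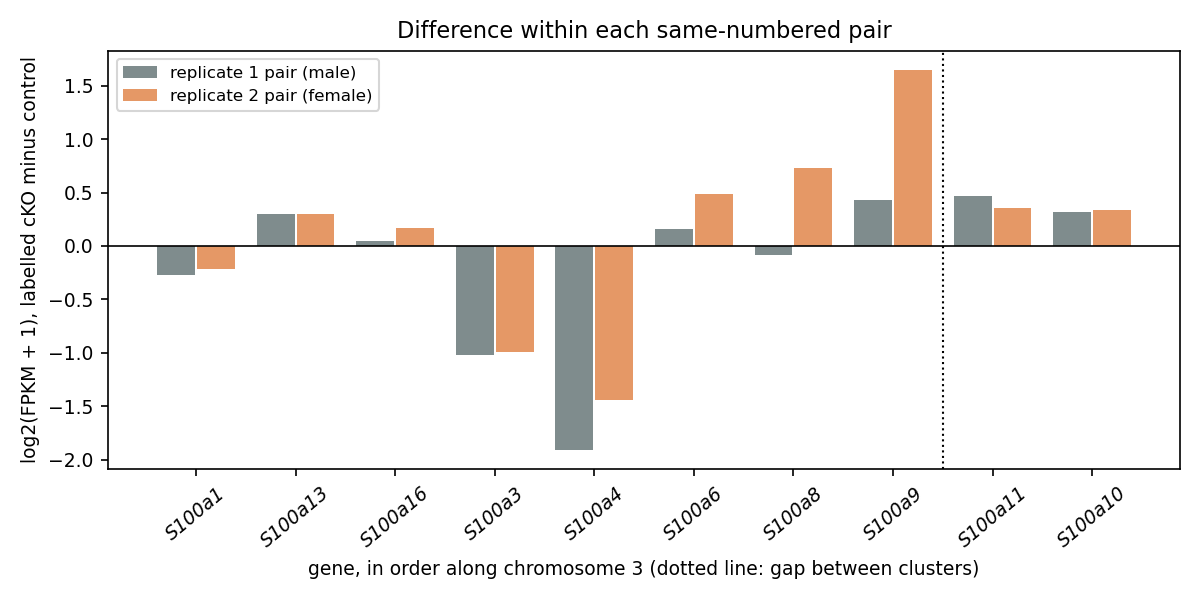
Difference in log2(FPKM + 1), labelled cKO minus control, within the replicate 1 (grey) and replicate 2 (orange) pair for the 10 S100 genes in order along chromosome 3; bars start at 0 and have no error bar, being 1 pair each. S100a3 and S100a4 reach -0.996 to -1.91 in both pairs, while S100a6, S100a9, S100a10, S100a11, S100a13 and S100a16 lie above 0, although the means of S100a10 and S100a16 turn below 0 with quantile normalization.

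Within 50 kb of a locus, HFSC list 1 has a peak for 6 of the 10 genes (54.1% of all tested genes), HFSC list 2 for 3 (38.6%) and the IFE list for 6 (53.8%). A site shared by both HFSC lists lies within 50 kb of 3, namely S100a3, S100a4 and S100a6, and of 26.5% of all tested genes. Because neighbouring loci share their windows, these counts rest on 8 peaks of HFSC list 1, 1 of HFSC list 2 and 3 of the IFE list. All 3 IFE peaks overlap peaks of HFSC list 1.

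The profile of S100a4 over the 4 libraries was set beside that of every other tested gene, by the largest gap in log2(FPKM + 1) after centring each gene on its own mean. The nearest was Paqr6, a membrane receptor of the progestin and adipoQ family, at 5.89 and 16.1 FPKM in the male library labelled cKO and its control and 18.0 and 53.1 in the female ones (largest gap 0.32). It was followed by A930005H10Rik (0.53), 2210020M01Rik (0.54), the small nucleolar RNA Snord32a (0.55) and F3, which encodes tissue factor, the starter of blood clotting (0.56). F3 stood at 11.7 and 21.3 FPKM in replicate 1 and 37.2 and 58.5 in replicate 2. Among the other S100 genes, S100a1 came 80th (0.92) and S100a3 210th (1.04) of 14454. S100a9 ranked 1475th from S100a8, with a gap of 0.94, and S100a8 1682nd from S100a9.

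The known partners of S100 proteins were examined with a list of 27 genes for binding partners, receptors and modifying enzymes, of which 21 passed the filter. Limma called 0 of the 21, with genotype alone (adjusted p = 1.00 for each; 0 had p under 0.05 before adjustment) or with the replicate block (adjusted p from 0.322 to 0.991; 2 higher and 3 lower had p under 0.05 before adjustment). Of all 14455 tested genes the block called 0.284%, and 11.4% had p under 0.05 before adjustment. Their median log2 difference was -0.15, beside -0.00640 for all tested genes. Anxa2, which encodes the partner of S100a10, had 1528 and 1444 FPKM in the male library labelled cKO and its control, and 1613 and 1679 in the female ones. Anxa1, for the partner of S100a11, stood at 638 and 409 and at 680 and 657 FPKM. Anxa5, another annexin, stood at 136 and 94.3 and at 133 and 109 FPKM.

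Several partners stood lower in replicate 2, opposite to the S100 genes. Their loci are long, and so are those of some partners that moved less or went up. The mean log2 difference of replicate 2 minus replicate 1 was -0.35 for Fgf1 (787892 bp). It was 0.15 for Anxa2 (38176 bp) and 0.69 for Sugt1 (42065 bp), which encodes a further partner on the list. The part of locus length in the partner values was not tested. Ahnak (87660 bp), a giant scaffold protein that binds S100a10 and annexin A2, stood at 284 and 292 FPKM in replicate 1 and at 83.9 and 106 in replicate 2. Myh9 (81589 bp), the non-muscle myosin that S100a4 binds, stood at 69.9 and 99.1 and at 25.1 and 24.4 FPKM, and the related Myh14 at 140 and 142 and at 85.7 and 63.2. Among receptors at the cell surface, Bsg (basigin, a receptor of S100a9) stood at 172 and 143 and at 315 and 268 FPKM, and Alcam at 56.6 and 87.1 and at 21.6 and 28.2. Ager and Tlr4, the classical receptors of released S100 proteins, were listed at 0.836 FPKM or less in every library.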

How the data were processed

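Expression of HFSCs was deposited by the authors as FPKM in 1 table of 37298 rows with a column for each of the 4 RNA libraries, per the file headers. SOX9 peaks were deposited as 3 lists of chromosome, start and end with no height or score; the sources used here give neither the caller nor its threshold. Cufflinks 1.0.3, TopHat, TopHat2, Bowtie and mm9 stand in the submitters' processing notes, without saying which made what. The 3 input DNA libraries were not used here. Reads per library are unknown: low values shared no common step (at most 3.51% of ratios in 1 bin), so counts were not modelled.

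On log2(FPKM + 1), linear models were fitted in R 4.3.3 with limma 3.58.1 (mean trend, two-sided, Benjamini-Hochberg over the 14455 genes with a mean of at least 1 FPKM, threshold 0.05), first with genotype alone and then with the replicate number as a block. This scale understates the change of low genes. The script was tested on simulated data. The replicate numbers pair the libraries, since sex, age and days of treatment are shared per the labels (correlation of their deviations from the group means 0.812, over genes, which are no independent replicates). P-values measure only the spread between these 4 libraries, which may be technical.

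Peaks were assigned to deposited loci (no strand) within 50 kb, and overlapped by at least 1 bp; starts were written 1-based. Sequences are from RefSeq, GRCm38.p6. Alternatives varied pseudocount, filter, scaling, trend, block, windows and libraries. The members and gene lists were chosen with earlier results of these data known. Genes named were the 10 members, other S100 and fused-type genes, partners past the threshold or among the 8 of highest mean FPKM (with Ager, Tlr4, Fgf1 and Sugt1, added after their values were seen), Sox9, the 5 nearest profiles to S100a4 and genes nearest the peaks.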

Additional observations from a re-analysis of the deposited data

Results flagged for a closer look

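S100a8 differed in direction between the pairs. Its log2(FPKM + 1) was higher by 0.73 in the library labelled cKO of replicate 2 and gave -0.0836 in replicate 1, where it was listed at 0 and 0.0597 FPKM. This difference between the pairs was not tested, and 41.5% of all tested genes went in opposite directions.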

How the results depend on the processing

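Limma with genotype alone called 0 genes over the whole table. With the replicate block it called 41, and the block gave 33 at a pseudocount of 0.1, 78 at 5, 3 with quantile normalization and 45 with median-ratio scaling (chosen after seeing the data), and 0 with no filter or no mean trend. Leaving out 1 library, with no block and part of the replicate difference in every value, gave 2 to 41 calls. The members were chosen with this comparison known, so nothing is read from their calls. S100a4 was called in 5 of 7 blocked fits (adjusted p from 0.00394 to 0.742) and in none with 1 library left out, where its log2 difference ran from -2.56 (without the replicate 2 library labelled cKO) to -0.80 (without that of replicate 1). S100a3 was called in 0 of the 7 (0.0598 to 0.742). Over the 14 fits with 4 libraries, S100a3 lay between -1.13 and -0.68 and S100a4 between -1.89 and -1.64; only S100a10 and S100a16 changed sign, with quantile normalization. With 1 library left out, S100a1, S100a6, S100a8, S100a10, S100a13 and S100a16 changed sign in at least 1 fit. Partner genes called stayed at 0 in every setting.

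Genes at least 2-fold apart in both pairs numbered 28 higher and 40 lower, then 51 and 84 at a pseudocount of 0.1 and 9 and 15 at 5. Those lower in replicate 2 numbered 779, then 1174 and 251. At 100 kb HFSC list 1 had a peak for 10 members (67.0% of all tested genes), HFSC list 2 for 8 (49.6%) and the shared sites for 8 (36.1%); at 10 kb the IFE list had one for 1 (36.3%). At 10 kb, 34.9%, 24.2% and 15.6% of all loci had a peak of HFSC list 1, HFSC list 2 and both. With peaks of HFSC list 1 limited to those shared with list 2, 3 members had one. The cause of these moves was not tested, other than that wider windows hold more peaks. No stricter peak threshold could be set without scores. Depth is unknown, so no limit is given for S100a8 and S100a9.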

Other observations

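Proteins of the fused type carry an S100 domain at the start of a long repeat protein, and their genes lie between the S100 groups. Flg2 (filaggrin-2) had 34.3 and 44.7 FPKM in the male library labelled cKO and its control and 24.3 and 36.5 in the female ones, and Hrnr (hornerin) at 17.5 and 18.6 and at 14.9 and 15.5. Flg is listed in 6 rows of repeat copies, whose reads the counting can split. Tchh (trichohyalin, of the inner root sheath) stood at 1.11 to 2.08 FPKM, Rptn and Crnn at 0.288 or less, and Tchhl1 was listed at 0. Among other S100 genes, S100a7a stood at 2.40 to 3.77 FPKM, and S100b, S100g and S100z at 0.424 or less.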
